A study of Homo sapiens with 6 samples.

Results

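RGS5 and 9 further genes of the regulator of G protein signaling (RGS) family, RGS2, RGS3, RGS4, RGS10, RGS12, RGS14, RGS16, RGS17 and RGS19, were followed in MiaPaCa-2 pancreatic cancer cells under glucose withdrawal. They are 10 of the 60668 genes in the deposited table and were taken by gene symbol. RGS5 was selected on its measured values, a high level and a strong fall in these same libraries, so its values are given as a description with no test. The 9 others were taken as family members.

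The study asked how pancreatic ductal adenocarcinoma (PDAC) cells, and the metabolic enzyme IDH1 in them, cope when nutrients are scarce, and RNA-seq was done for a pair of glucose levels. MiaPaCa-2 is an established human PDAC cell line, supplied here by ATCC, and the labels name no edited gene and no drug for either group. Control cells were kept in 25 mM glucose and low-glucose cells in 2.5 mM glucose, the latter for 48 h, with 3 independent biological replicates for each. A treatment text shared by all 6 samples gives 2.5 mM, whereas the titles set the controls apart and the design text gives them 25 mM. The labels tie 2 of the 6 libraries to a column of the table, low glucose replicates 1 and 2. The other 4 were placed because the column names form a run of 3 for each condition, and they are named below by their depth. Reads on genes numbered 9741183, 10126218 and 10190154 in the 3 control libraries. Low glucose replicate 1 held 10841656, replicate 2 held 10595408 and the third low-glucose library held 13733477. Values are printed in this order throughout. The keratin genes KRT8, KRT18 and KRT19 and the mesenchymal filament gene VIM, markers of this line, were read at high levels in every library, while the epithelial adhesion genes EPCAM and CDH1 had at most 3 reads. All 4 markers with reads enough for a test passed in limma: KRT8 (log2 difference -1.01), KRT18 (-0.74) and KRT19 (-0.83) fell in low glucose and VIM rose (0.42). The summed level of the 6 markers of the line was 7523 to 8878 TPM in control (reads scaled to exon length and then to a fixed total) and 6808 to 6993 TPM in low glucose.

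G protein-coupled receptors switch on heterotrimeric G proteins by loading GTP onto the alpha subunit, which then parts from the beta and gamma subunits, and both pieces act on effector enzymes. RGS proteins bind the active alpha subunit and speed up its hydrolysis of GTP, so that they shorten the signal. RGS5, RGS4, RGS16, RGS2 and RGS3 belong to the R4 subfamily, RGS10, RGS12 and RGS14 to the R12 subfamily, and RGS17 and RGS19 to the RZ subfamily. RGS5 is best known as a marker of pericytes, the mural cells of small vessels.

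The start of the coding sequence is shown for the 3 members whose second codon, in capitals, is TGC, a cysteine codon, and for RGS10, whose second codon is not. Once the first methionine is removed, this cysteine is a known signal for breakdown of the RGS proteins that carry it. The first 30 coding bases of the canonical Gencode transcripts (hg38) read:
RGS5: atgTGCaaaggacttgcagctttgccccac
RGS4: atgTGCaaagggcttgcaggtctgccggct
RGS16: atgTGCcgcaccctggccgccttccccacc
RGS10: atgTTCaaccgcgccgtgagccggctgagc
RGS5 and RGS4 were identical at 23 of these 30 bases, RGS5 and RGS16 at 18, and RGS4 and RGS16 at 15. A cysteine codon stood second in 3 of the 10 members and in 0.838% of the 19571 canonical coding transcripts of the annotation that begin with ATG.

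The promoters of RGS5 and RGS4 are shown because both genes fell and because they are neighbors on chromosome 1. RefSeq promoter windows (GRCh38.p14), each from 250 bases before to 50 after a start, were found for all 10 members. In the windows at the starts of the canonical transcripts, RGS5 and RGS4 shared a run of 11 bases, in capitals below, that was looked for after the windows had been seen. It begins 69 bases before the RGS5 start and 56 bases before the RGS4 start:
RGS5, chr1:163202966-163202995, minus strand: taaggctctgGATTGGCTGGAagagcaaca
RGS4, chr1:163069295-163069324, plus strand: gcggtcgtctGATTGGCTGGAcggtcgtag
The run holds ATTGG, the reverse complement of the CCAAT box. The whole run was found on either strand in 46 of 35116 windows (0.131%), which belong to 44 genes. It was picked as the longest run that these windows share. The count therefore does not measure how often windows share a run of 11 bases, which was not tested. Windows were also searched on both strands for CCAAT (found in 34.6% of all windows), TATAAA (11.5%), the E-box CACGTG (7.26%), the cAMP response element TGACGTCA (1.85%), the CHOP-ATF4 element TGATGNAAT (0.991%) and the endoplasmic reticulum stress element (0.0769%). TATAAA lies 30 bases before the RGS4 start and was not in the RGS5 window. None of the last 3 elements was in a window of any member. CACGTG was in 1 window of RGS3 and 1 of RGS19. CCAAT or its reverse complement was also in windows of RGS2, RGS3 and RGS16, and TATAAA was also in 1 window of RGS3. These matches describe the letters of the windows and say nothing of binding.

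Levels were compared between members as TPM, which divides reads by exon length. RGS4 had the highest level of the 10 in both conditions. In control its TPM was 675 ± 33.9 (SD, n = 3). By mean TPM over all 6 libraries of both conditions it placed 208th of the 21101 tested genes. RGS5 followed at 244 ± 10.2 TPM in control (SD, n = 3) and placed 861st by the mean over all 6 libraries, which includes its low-glucose values. RGS10 had 71.6 TPM, RGS19 36.0, RGS3 13.9, RGS16 6.71, RGS12 5.15, RGS2 4.52, RGS14 4.02 and RGS17 0.138, all as control means. From RGS4 down to RGS3 no library of a gene overlapped the libraries of the next gene in this order. RGS16, RGS12, RGS2 and RGS14 overlapped their neighbors, so their control order was within the spread of the libraries. In low glucose RGS4 stood at 393 ± 22.3 TPM (SD, n = 3), RGS10 at 82.0 ± 2.27 and RGS5 at 74.0 ± 3.93. On this scale RGS5 and RGS10 thus stood in the opposite order under low glucose. RGS5 was at 70.6 to 78.3 TPM and RGS10 at 79.4 to 83.6 TPM. That order depends on the length used, all annotated exons of a gene merged: 6624 bases for RGS5 and 1274 for RGS10. In normalized counts, reads divided only by the size factor of the library, RGS5 averaged 1698 and RGS10 362 under low glucose. Which transcripts were made was not tested. The TPM ranges of RGS3 (8.56 to 9.54) and RGS16 (8.07 to 9.17) overlapped there, whereas in control RGS3 was above RGS16 in every library.

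**Figure D1:**
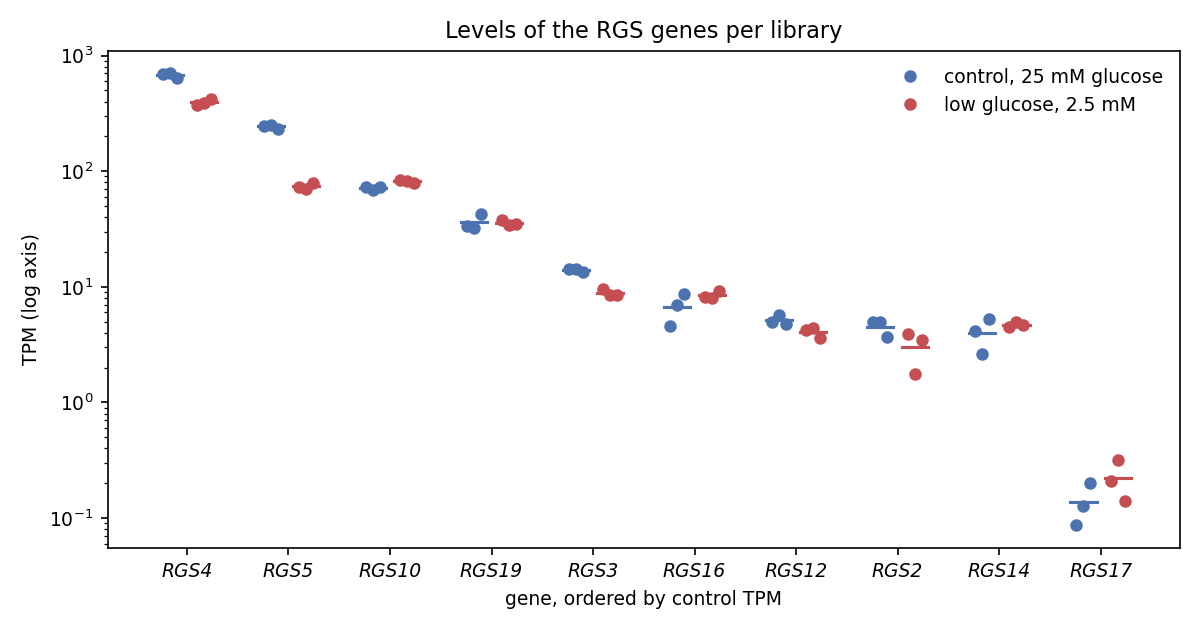
TPM of the 10 RGS genes on a log axis, one point per library and a bar at the mean of the 3 libraries of control (25 mM glucose) or low glucose (2.5 mM). RGS4 is at the top in both conditions (675 and 393 TPM on average), and RGS5 falls from 244 to 74.0 TPM, below RGS10 at 82.0 TPM. The order of RGS5 and RGS10 depends on the exon length used.

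The 10 members together held 1020 to 1089 TPM in the control libraries and 601 to 641 TPM in the low-glucose libraries, a sum that includes RGS5, selected for its fall. Without RGS5 the other 9 summed to 788 to 837 TPM in the controls and 528 to 563 TPM under low glucose, most of it RGS4. Of the sum of all 10, RGS4 made up 62.4 to 64.4% in the control libraries and 62.5 to 65.3% under low glucose. The share of RGS5 went from 22.8 to 23.1% in the controls to 11.7 to 12.2% under low glucose. The ratio of RGS5 to RGS4 in TPM lay between 0.358 and 0.365 for the controls and between 0.183 and 0.195 for low glucose.

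RGS5 (ENSG00000143248, chr1:163111121-163321791, minus strand) encodes a short R4 protein of 181 codons that acts on Gi and Gq alpha subunits. Its normalized counts, which are reads divided by the size factor of the library, were 5359, 5556 and 5158 in control and 1675, 1639 and 1780 in low glucose. Each low-glucose library was at about the same level, far below every control library. The low-glucose mean was 0.317 of the control mean, that is 68.3% lower, and the difference on the log2(normalized count + 1) scale was -1.66 (standard error 0.0732), which chose the gene and is not tested here. Among the 10149 genes that averaged 100 normalized counts or more it was the 11th largest fall. The log2 difference was -1.58 when libraries were scaled by total reads and -1.46 after quantile normalization. In bulk RNA, fewer cells expressing a gene and less RNA per cell cannot be told apart.

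RGS5 is a pericyte marker, and the markers of other cell types were read beside it. The 8 pericyte markers summed to 9.17 to 11.3 TPM in the controls and 11.2 to 12.2 TPM under low glucose. Most of that sum was NOTCH3, a receptor also made by tumor cells. The potassium channel gene KCNJ8 had no read, and the growth factor receptor gene PDGFRB had at most 9 reads in a library. Of the 5 pericyte markers tested, MCAM alone passed, higher in low glucose at no more than 7 reads (limma adjusted p = 0.0382). The 4 endothelial markers summed to 7.77 to 9.42 TPM in the controls and 0.469 to 0.588 TPM under low glucose, nearly all of it CDH5, an adhesion gene of endothelium. CDH5 had 180, 184 and 155 normalized counts in control and 9.62, 9.88 and 12.1 in low glucose, while KDR had no read and PECAM1 at most 3. Of 3 leukocyte markers, PTPRC and CD3E had no read, and CD68 had 15, 1 and 4 reads in control and 0, 8 and 4 in low glucose, with an overlap between conditions (log2 difference -0.82, limma adjusted p = 0.501). The 3 summed to 0.154 to 2.39 TPM in the controls and 0 to 1.04 TPM under low glucose. The part of any of these in the fall of RGS5 was not tested.

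RGS4 (chr1:163068775-163076802, plus strand; ENSG00000117152), a close relative of RGS5 that also acts on Gi and Gq alpha subunits, had 10566, 11080 and 10092 normalized counts in control. In low glucose it had 6130, 6402 and 6791. All low-glucose libraries were below all control libraries. The log2 difference was -0.72 (standard error 0.0788, 95% confidence interval -0.88 to -0.55) with a limma adjusted p of 1.15e-05. Its adjusted p stayed under 0.05 in every alternative run, at most 0.0106.

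Across the table, 30.9% of the 21101 tested genes passed the threshold of a limma adjusted p under 0.05, 14.7% higher and 16.2% lower in low glucose. All 10 members passed the filter of a mean of at least 1. Among the 9 members other than RGS5, 3 passed the threshold: RGS4 and RGS3 fell and RGS10 rose. This is 33.3% of the 9, near the share among all genes, and their median log2 difference was 0.06 against 0.05 over all tested genes. The 3 control and 3 low-glucose values did not overlap for 4 of these 9, RGS3, RGS4, RGS10 and RGS12, where 43.9% of all tested genes had no overlap.

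RGS3, a longer R4 protein that also acts on Gi and Gq alpha subunits, had 605, 625 and 592 normalized counts in control and 433, 395 and 386 in low glucose. Its values did not overlap. The log2 difference was -0.59 (standard error 0.0868), with a limma adjusted p of 0.000149 and at most 0.0151 in the alternatives. RGS16, the third member with a cysteine codon in second place, had 35.9, 55.7 and 69.5 normalized counts in control against 68.3, 68.2 and 75.8 in low glucose. One control library was as high as the low-glucose libraries. The log2 difference of RGS16 was 0.44 (95% confidence interval -0.05 to 0.93, limma adjusted p = 0.162), and without that control library, the one of 10190154 reads, it was 0.65 with an adjusted p of 0.0342, in a range of 0.0342 to 0.538 over the alternatives. RGS2, which acts mainly on Gq, was low: 33.6, 34.6 and 25.7 normalized counts in control and 27.9, 12.8 and 25.0 in low glucose. The conditions overlapped, and the log2 difference of -0.55 had a 95% confidence interval of -1.23 to 0.12 and a limma adjusted p of 0.205. Without low glucose replicate 2, its lowest library, the log2 difference of RGS2 was -0.22 (adjusted p = 0.638, with 0.0671 to 0.638 over the alternatives).

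Of the R12 subfamily, RGS10 is a small protein with little beyond its RGS domain. Its normalized counts were 302, 294 and 311 in control and 367, 370 and 347 in low glucose, so that every low-glucose library was higher. The log2 difference was 0.26 (standard error 0.0925, 95% confidence interval 0.06 to 0.46) with a limma adjusted p of 0.0473. This call was lost in 8 of 15 alternatives, with an adjusted p of 0.0133 to 0.155 over all of them. It was lost without 5 of the 6 libraries, the exception being the control library of 10190154 reads. RGS12 and RGS14 carry, besides the RGS domain, a GoLoco motif that binds inactive Gi alpha subunits. RGS12 had 221, 264 and 220 normalized counts in control and 200, 213 and 170 in low glucose. These did not overlap, yet the log2 difference of -0.27 (95% confidence interval -0.54 to -0.01) did not pass, with a limma adjusted p of 0.111. It was -0.18 without the deepest low-glucose library (adjusted p = 0.371, with 0.0654 to 0.371 over the alternatives). RGS14 had 50.4, 32.3 and 65.3 in control and 57.7, 64.2 and 59.9 in low glucose. It was the more scattered in control and did not pass (log2 difference 0.35, 95% confidence interval -0.17 to 0.86, limma adjusted p = 0.302). The log2 difference of RGS14 was 0.076 without the control library of 10126218 reads and 0.57 without that of 10190154 reads, with adjusted p values of 0.821 and 0.0719, the ends of their range over the alternatives.

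The RZ members act mainly on Gi and Gz alpha subunits. RGS19 had 220, 217 and 291 normalized counts in control and 266, 242 and 244 in low glucose. Its log2 difference was 0.06 (95% confidence interval -0.21 to 0.33, limma adjusted p = 0.760), and it was -0.0053 without the control library of 9741183 reads and -0.013 without that of 10126218 reads. RGS17 had few reads, 2, 3 and 5 reads in control and 6, 9 and 5 in low glucose. Its log2 difference of 0.61 had a 95% confidence interval of -0.47 to 1.70 and a limma adjusted p of 0.397. With 1 library left out it ranged from 0.35 without low glucose replicate 2 to 0.87 without the deepest low-glucose library. After quantile normalization it was 0.30.

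**Figure D2:**
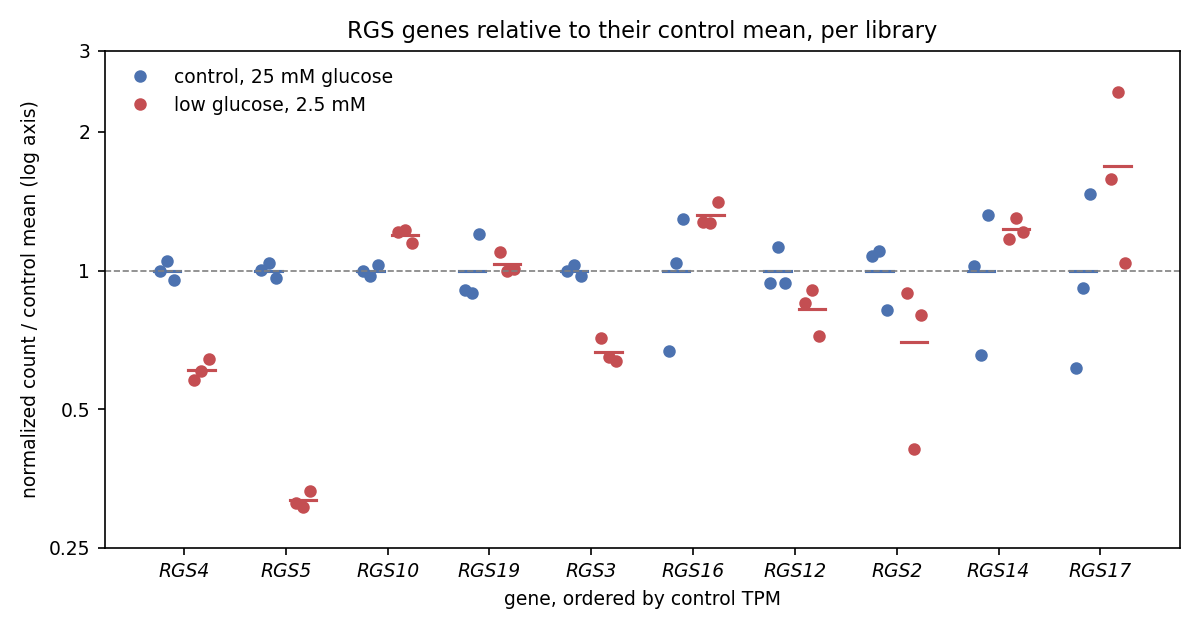
Normalized count of each RGS gene divided by its control mean, on a log axis, with one point per library and a bar at the mean of 3 libraries. The low-glucose points of RGS5 lie near 0.317 and those of RGS4 near 0.609, clear of control, while the points of RGS2, RGS14, RGS16, RGS17 and RGS19 overlap between conditions.

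**Figure D3:**
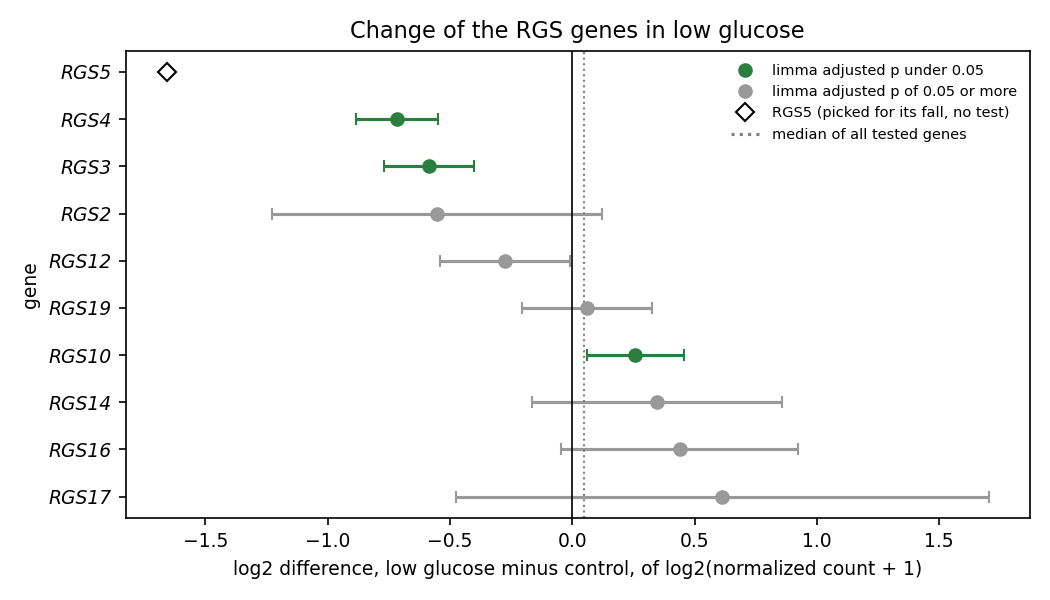
Log2 difference (low glucose minus control) of each RGS gene with its 95% confidence interval from limma over 3 and 3 libraries. RGS5, drawn as an open diamond at -1.66 with no interval, was picked for this fall. RGS4 (-0.72) and RGS3 (-0.59) lie below 0 and RGS10 (0.26) just above it, and the dotted line is the median of all tested genes (0.05).

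The remaining RGS genes and the membrane anchor genes RGS7BP and RGS9BP formed a list of 13. Of these, 8 had no read in any library and RGS7 had 1 read, which leaves 4 tested. RGS11, an R7 protein that works in a complex with GNB5, had 9, 2 and 7 reads in control and 17, 28 and 14 in low glucose. Its log2 difference of 1.42 had a limma adjusted p of 0.0444, a call lost in 9 of 15 alternatives (0.0348 to 0.217), among them those without the control library of 10126218 reads or any 1 low-glucose library. RGS11 shares 993 exon bases with FAM234A on the other strand, which had up to 1053 reads. RGS9, RGS20 and the RGS9 anchor gene RGS9BP did not pass.

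Receptors known to signal to the G proteins that R4 members act on were taken as a list of 18, of which 9 were tested. In low glucose 4 fell and 1 rose, 55.6% of those tested against 30.9% of all tested genes. The median log2 difference of the 9 was -0.21. That 30.9% is the share to set beside each list below, and no list was tested as a set. F2R (chr5:76716126-76735770), the thrombin receptor gene, had 3761, 4115 and 3380 normalized counts in control and 1346, 1273 and 1448 in low glucose. No low-glucose library came near the control libraries. F2R shares 39 exon bases with ENSG00000225407 on the other strand, which had 7.19% of its reads and a log2 difference of -1.68. The log2 difference of F2R was -1.47 (standard error 0.0862, limma adjusted p = 3.92e-08). Its neighbors on chromosome 5, the trypsin receptor gene F2RL1 and the thrombin-binding F2RL2, had log2 differences of -1.46 (limma adjusted p = 4.20e-05) and -1.05 (0.0104). F2RL2 was low, at 31.9 ± 2.56 normalized counts in control (SD, n = 3), and shares 87 exon bases with IQGAP2 on the other strand, which had more reads and a log2 difference of -1.39. S1PR5, a sphingosine 1-phosphate receptor gene, fell by 1.02 on the log2 scale (limma adjusted p = 0.000828). LPAR3, a lysophosphatidic acid receptor gene that was named after its values were seen, had 93.0, 120 and 120 normalized counts in control and 181, 220 and 211 in low glucose (log2 difference 0.88, limma adjusted p = 0.000295). These 5 calls held in all alternatives with no fold criterion.

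The alpha subunits are the direct partners of RGS proteins. Of 16 genes, 12 were tested, and 3 fell and none rose (25.0%; median log2 difference -0.14). GNAI3, a Gi subunit, had 1954, 2155 and 1904 normalized counts in control and 1425, 1395 and 1453 in low glucose, with a log2 difference of -0.49 (standard error 0.0758, limma adjusted p = 0.000208). GNA11, of the Gq class, had a log2 difference of -0.39 (limma adjusted p = 0.00112), a call lost after quantile normalization (0.0660, range 9.56e-05 to 0.0660). It shares 472 exon bases with ENSG00000267688 and 452 with ENSG00000267139 on the other strand, which had 21.3% and 13.9% of its reads. GNAI2, the other abundant Gi subunit, had -0.25 (0.0141) and lost its call in 5 of 15 alternatives (0.00431 to 0.735), among them those without low glucose replicate 1 or replicate 2. In TPM, GNAS (87.7 in control), GNA11 (93.7), GNAI2 (77.5) and GNAI3 (66.8) were the alpha subunit genes read most. GNAS, the Gs subunit, which most RGS proteins do not act on, had a log2 difference of 0.10 (limma adjusted p = 0.494).

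Among 17 beta and gamma subunit genes, 15 were tested, with 2 higher and 2 lower (26.7%; median -0.02). GNB5, the beta subunit that pairs with RGS proteins of the R7 subfamily, had 94.2, 120 and 106 normalized counts in control and 137, 149 and 156 in low glucose. Its log2 difference was 0.46 (limma adjusted p = 0.0209). GNG5 had 0.42 (0.0250), GNB3 -0.33 (0.0428) and GNB1, the beta gene with the most reads of the 4, -0.29 (0.00617). These 4 calls were lost in 5, 5, 9 and 2 of 15 alternatives respectively, and GNB3 shares 549 exon bases with CDCA3 on the other strand, which also fell. GNG5 shares 119 exon bases with SPATA1 on the other strand, which rose (log2 difference 0.87, limma adjusted p = 0.000127) and had 68.5% of the reads of GNG5, and 30 with RPF1, which had 187%. GNB5 shares 874 exon bases with the noncoding RNA gene ENSG00000259327 on the other strand, which had 20.1% of its reads, and 356 with ENSG00000259709, which had 17.8%. Leaving out 1 library ended the call of GNB5 for the control library of 9741183 reads, low glucose replicate 2 and the deepest low-glucose library, and that of GNG5 also for replicate 1. That of GNB3 ended for each library but the control of 10126218 reads.

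Other proteins with an RGS-homology domain include the receptor kinases, the RhoGEFs and the axins. Of 16 genes, 15 were tested, and 2 fell and none rose (13.3%; median -0.01). GRK6, a receptor kinase, had a log2 difference of -0.32 (limma adjusted p = 0.00901), and SNX13, a sorting nexin, had -0.26 (0.0324). On the other strand GRK6 shares 399 exon bases with F12, which had 6.33% of its reads and a log2 difference of 0.59. It also shares 99 with PRR7-AS1, which had 4.62% of its reads. The call of GRK6 was lost in 4 of 15 alternatives (0.00220 to 0.308), with low glucose replicate 1 or the deepest low-glucose library left out among them. That of SNX13 was lost in 8 (0.0263 to 0.128), with any low-glucose library or the control library of 9741183 reads left out among them.

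Of the 7 genes of GoLoco proteins and Ric-8 chaperones, which handle the inactive alpha subunit, all were tested. Of these, 2 were higher and 2 lower (57.1% against 30.9% of all tested genes), with a median log2 difference of -0.08. RAP1GAP, which switches off the small G protein RAP1, had 31.4, 30.1 and 29.96 normalized counts in control and 67.3, 65.2 and 72.7 in low glucose. The libraries of each condition lay close together, and the log2 difference was 1.14 (standard error 0.197, limma adjusted p = 0.000525). GPSM1 and GPSM2, activators of G protein signaling, each had a log2 difference of -0.46, with limma adjusted p values of 0.00598 and 0.000432. The GPSM1 call was lost without low glucose replicate 1 (0.0607) and with no variance trend (0.0950), the highest in its alternatives. GPSM2 shares 5461 exon bases with CLCC1 on the other strand, which also fell (log2 difference -0.28) and had 65.4% of the reads of GPSM2. GPSM3, at 4 to 30 reads and outside the naming rule, shares 98 exon bases with NOTCH4 on the same strand, which had up to 67 reads. GPSM3 had a log2 difference of 1.18 (limma adjusted p = 0.0447), a call lost in 10 of 15 alternatives (0.00828 to 0.175), among them those without any 1 library other than the control library of 10190154 reads.

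Of 13 effector genes, the adenylyl cyclases that make cAMP and the beta phospholipases C, 9 were tested, with 1 higher and 2 lower (33.3%; median 0.13). ADCY9 had 254, 321 and 247 normalized counts in control and 151, 168 and 199 in low glucose, with a log2 difference of -0.66 (limma adjusted p = 0.00182). ADCY3 had -0.29 (0.0133), a call lost in 6 of 15 alternatives (0.00246 to 0.248), among them those without the control library of 9741183 reads, low glucose replicate 1 or the deepest low-glucose library. ADCY3 shares 1488 exon bases with CENPO on the other strand, which also fell (log2 difference -0.51) and had 92.0% of the reads of ADCY3. ADCY5, at 23.4 ± 3.80 normalized counts in control (SD, n = 3), had a log2 difference of 0.68 (limma adjusted p = 0.0498), a call lost in 8 of 15 alternatives (0.0300 to 0.242), among them those without any 1 library other than the control library of 10190154 reads.

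The cysteine that follows the first methionine of RGS4, RGS5 and RGS16 is exposed by the methionine aminopeptidases METAP1 and METAP2, oxidized by ADO, arginylated by ATE1 and read by ubiquitin ligases of the UBR family. Of these 8 genes, all were tested, and 3 fell and none rose (37.5%; median -0.01). METAP2 had 1859, 1953 and 1803 normalized counts in control and 1228, 1235 and 1321 in low glucose, with a log2 difference of -0.57 (standard error 0.0744, limma adjusted p = 5.16e-05). METAP1 had -0.33 (0.00777) and lost its call with no variance trend (0.0593) and without the control library of 9741183 reads (0.0513), within a range of 0.000584 to 0.0593. UBR4 had -0.39 (0.0173), lost in 5 of 15 alternatives (0.00141 to 0.161), among them those without the control library of 9741183 reads, low glucose replicate 1 or the deepest low-glucose library. ADO, the oxygen-dependent step, had 330, 344 and 383 normalized counts in control and 374, 366 and 368 in low glucose. Its values overlapped (log2 difference 0.07, 95% confidence interval -0.13 to 0.27, limma adjusted p = 0.621). ADO shares 159 exon bases with ENSG00000238280 on the other strand, which had 14.6% of its reads. ATE1 had a log2 difference of 0.01 (95% confidence interval -0.23 to 0.26, limma adjusted p = 0.953), which was -0.12 without the control library of 10190154 reads and -0.03 without low glucose replicate 2. RNA levels say nothing here of how much RGS protein was made or broken down.

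**Figure D4:**
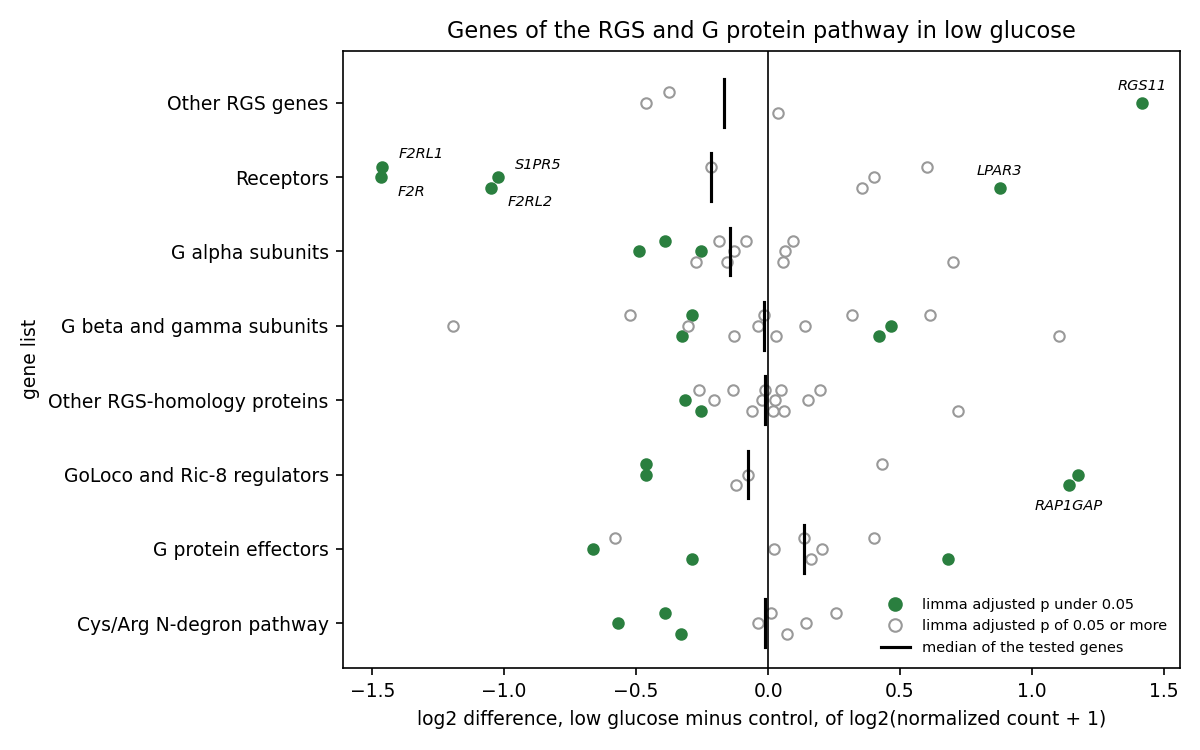
Log2 difference (low glucose minus control) of the tested genes in each of 8 lists, one point per gene, filled where the limma adjusted p was under 0.05, with a bar at the list's median. The receptor genes F2R (-1.47) and F2RL1 (-1.46) lie farthest to the left, and the medians of the lists lie between -0.21 and 0.13.

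Over all 8 lists, 79 of 108 genes were tested and 25 passed, 7 higher and 18 lower. This was 31.6%, near the 30.9% of all tested genes, and the median log2 difference was -0.02. With no variance trend 12 passed, and with a required absolute log2 difference of at least 1 it was 7.

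The genes whose pattern over the 6 libraries was most like that of RGS5 were sought among the 10148 other genes that averaged 100 or more, by the root mean square difference of the log2 level relative to control. E2F2, a cell cycle transcription factor gene, differed from RGS5 by 0.0725, with 211, 192 and 173 normalized counts in control and 58.7, 56.3 and 63.6 in low glucose. CAVIN2, a coat protein gene of caveolae, differed by 0.0730, with 1945, 1879 and 1710 in control and 534, 591 and 580 in low glucose. MGAT5B, a glycosyltransferase gene, differed by 0.0767, with 223, 246 and 239 in control and 76.0, 79.0 and 76.5 in low glucose. Like RGS5, each of these lay in low glucose at roughly the same fraction of its control level in all libraries. CAVIN2-AS1 differed by 0.128 but shares 238 exon bases with CAVIN2 on the other strand. ADORA1, the gene of the Gi-coupled adenosine A1 receptor, differed by 0.130, with 307, 348 and 303 in control and 94.3, 114 and 120 in low glucose. These genes were chosen for a fall like that of RGS5, so their values are a description.

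Around RGS5 on chromosome 1, the gene record of RGS4 starts 253 kb away on the side of lower coordinates, followed by CCDC190 and HSD17B7. Distances are from the outermost start of the RGS5 gene record. The RGS5 promoter shown above is at the canonical start, and another RefSeq start of RGS5 lies 118819 bases from it. The promoters shown for RGS5 and RGS4 therefore lie closer together than 253 kb. CCDC190 had a log2 difference of -0.70 (limma adjusted p = 6.11e-05) and HSD17B7, a sterol enzyme gene, of -0.14 (0.332). NUF2, a kinetochore gene on the opposite strand, starts inside the RGS5 gene record, 55.2 kb from its outermost start, and runs past that start. It shares no exon bases with RGS5 and had a log2 difference of -0.74 (limma adjusted p = 3.76e-05). A long noncoding RNA gene, ENSG00000232995, starts 0.103 kb from the RGS5 gene record on the same strand and shares 534 exon bases with it, but held 19 to 39 reads per library and had a log2 difference of 0.22 (0.569). On the side of higher coordinates, the next gene that averaged 20 or more, MGST3, starts 2309 kb away. It had a log2 difference of 0.85 (0.00707), with an adjusted p of up to 0.124 in the alternatives. RGS5-AS1 had at most 3 reads. No other member shared exon bases with a gene that had reads.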

How the data were processed

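The RNA-seq table was analysed from the values that the authors deposited. According to the methods, strand-specific libraries were made with a NEBNext Ultra II Directional kit, sequenced in paired-end format, trimmed with Trim Galore, mapped to hg38 with STAR (2.7.0e) and compared with DESeq2. The software list also holds RSEM, with no role named. Which tool counted the deposited reads, its strand setting and the annotation are not given in the sources used here, so overlapping genes on opposite strands may share reads. What the authors deposited is a signal: read counts after division by a size factor of the library. In the 6 libraries 100% of values came out as whole reads (tolerance 0.001), and median-of-ratios factors recomputed over 17906 genes matched the deposited scaling, so the reads could be recovered. Gencode v44 matched 99.4% of the identifiers.

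Values were compared as log2(value + 1) over genes that averaged 1 or more, with limma 3.58.1 (trend, two-sided) in R 4.3.3 and Benjamini-Hochberg adjustment over 21101 genes at a threshold of 0.05. This was the test foreseen for normalized values, and a count test had been foreseen only for raw counts. The pseudocount understates changes of low genes. TPM used the merged length of all exons of a Gencode gene. Alternatives were scaling by total reads, TMM factors, quantiles, no low-value filter, a filter at a mean of 5, a pseudocount of 0.1, no variance trend, DESeq2 1.42.0 and edgeR 4.0.16 (quasi-likelihood) on the recovered reads, a fold criterion (absolute log2 difference of 1 or more), and omission of 1 library at a time. Of these, 15 settings give a value for a single gene: 9 with all libraries and 6 with 1 left out. With 3 libraries per condition an exact permutation test could not go below 0.1. The scripts were tested on simulated data.

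The members and the gene lists were chosen with earlier results of these data known. All members were named. Of each list, up to 4 genes past the threshold were named, those with the largest change among genes averaging 20 or more, plus GNB5, ADO and ATE1. The 5 genes most like RGS5 and the 3 nearest genes on each side of its lowest coordinate were also named. LPAR3, RGS11, GPSM3, GNAS and the cell type markers were named after their values were seen. Promoter windows came from RefSeq and coding starts from Gencode.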

Additional observations from a re-analysis of the deposited data

How the results depend on the processing

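RGS4 and RGS3 were lower in low glucose in every alternative run. RGS5 was too, but it was picked for its fall in these libraries, so its direction is no support and its values are a description. Scaling by total reads moved RGS5 to -1.58 and quantile normalization to -1.46, and with 1 library left out it was -1.69 to -1.63. The limma adjusted p of RGS10 became 0.0580 with no filter and 0.0861 with no variance trend, settings that leave its log2 difference of 0.26 as it is by construction, and DESeq2 gave 0.26 with 0.107. With 1 library left out, RGS10 was 0.24 to 0.29, RGS16 0.18 to 0.65, RGS2 -0.76 to -0.22, RGS14 0.076 to 0.57 and RGS19 -0.013 to 0.20. RGS19 reversed to -0.0053 when the control library of 9741183 reads was dropped and to -0.013 when that of 10126218 was, and ATE1 reversed to -0.12 when the control of 10190154 reads was dropped and to -0.03 when low glucose replicate 2 was (range -0.12 to 0.11). Among the 9 members other than RGS5, 0 passed once an absolute log2 difference of 1 or more was required and 2 to 4 with 1 library left out. Of the 79 tested genes of the lists, 12 passed with no variance trend, 7 with the fold criterion and 14 to 28 with 1 library left out, with the fewest without low glucose replicate 1 (14) and without the deepest low-glucose library (15). Over all genes 6528 passed, 4090 with no variance trend, 1392 with the fold criterion and 4298 to 7173 with 1 library left out, the fewest without low glucose replicate 1. Of the calls over all genes, 3111 of 6528 were higher, and 3935 of 6582 after scaling by total reads. RGS17 could not be fitted with a mean of at least 5 or by edgeR, whose filters removed it; at no more than 9 reads in a library it had the widest confidence interval of the 9 tested members (-0.47 to 1.70). The causes were not tested. No paired analysis was possible because replicate numbers are given for only 2 of the 6 columns, both of low glucose.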
